A study of Homo sapiens with 42 samples.

Results

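The 35 genes described here encode the machinery of cell division: the cyclins and the kinase that start mitosis, the kinases and motors that build the spindle, the kinetochore, the proteins that release sister chromatids, and those that separate the daughter cells. They were chosen by gene symbol, with earlier results of these data known. They are 35 of the 58869 gene rows used from a table of read counts. All 35 passed the filter on low counts in every fit. Polyadenylated RNA was sequenced, without strand information, in 42 libraries of 2 human acute myeloid leukaemia cell lines, in 14 groups of 3.

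NOMO1 cells carry a rearranged KMT2A gene and OCI-AML3 cells the mutation that moves nucleophosmin to the cytoplasm (NPM1c+), and each line gave 7 groups. In each line the drug groups were VTP-50469 at 100 nM on day 3 and on day 6, selumetinib at 100 nM alone, and both drugs combined on day 3 and on day 6. Cells in DMSO on day 3 and on day 6 were the controls. VTP-50469 blocks the binding of menin to KMT2A, and selumetinib inhibits MEK, the kinase that activates ERK. The number of the menin inhibitor is written in 2 ways in the labels, and VTP-50469 is used here. The exposure to selumetinib alone is uncertain, since its labels give 1 day while 2 of its 3 replicates are titled day 3. No 1-day DMSO group was analysed here, and the duration of selumetinib within the combination is not labelled. Nor is it labelled whether replicates were cultured separately, so p-values measure only the spread between these libraries, which may be technical. Each genotype is represented by 1 cell line.

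Transcripts of division genes are low in G1 phase and accumulate through G2 phase and mitosis. As background, many of their promoters hold a cell cycle genes homology region (CHR), which is bound by the MuvB core (LIN9, LIN37, LIN52, LIN54 and RBBP4). With E2F4 and an RB-related protein MuvB holds these genes down in resting cells, with MYBL2 and FOXM1 it activates them before mitosis, and NF-Y binds the neighbouring CCAAT boxes, whereas genes of DNA replication are driven earlier in the cycle by other E2F proteins. In bulk RNA, fewer cells near mitosis and less of a transcript per cell cannot be told apart.

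The promoter letters are shown because the choice of members did not use them. RefSeq promoters (GRCh38.p14), 250 bases before to 50 bases after the start of transcription, were found for 30 of the 35 members, and AURKA, TTK, UBE2C, BIRC5 and TPX2 are named only. The CHR letters TTTGAA or TTCGAA, on either strand, stood in the promoters of 23 of the 30 members (76.67%), against 19.54% of 27305 genes. CCAAT, on either strand, stood in 24 members (80%), against 39.72% of genes, and both stood in 19 members (63.33%), against 7.85% of genes. Of the 35116 promoters counted singly, 16.35% held the CHR letters, 34.61% held CCAAT and 6.38% held both. A CCAAT match can share its end letter with a CHR match, and TTCGAA is its own reverse complement. A match is a description of the letters, not a site or a cause. Shown are the 200 bases before the start, 5′ to 3′ on the strand of the gene, for 1 promoter a gene. The first 7 are members that held both motifs, taken in order of their adjusted p under VTP-50469 on day 6 in NOMO1, and the last 2, KIF2C and CENPE, held neither. Capitals mark the CHR letters and CCAAT on either strand. The capitals that end the ECT2 sequence are the first 2 letters of a CCAAT that runs past the bases shown.
CDK1 (chr10:60778278-60778477, plus strand): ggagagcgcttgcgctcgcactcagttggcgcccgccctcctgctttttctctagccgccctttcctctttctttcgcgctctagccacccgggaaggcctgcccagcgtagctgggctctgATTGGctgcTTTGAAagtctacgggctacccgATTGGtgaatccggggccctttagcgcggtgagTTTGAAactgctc
TOP2A (chr17:40417897-40418096, minus strand): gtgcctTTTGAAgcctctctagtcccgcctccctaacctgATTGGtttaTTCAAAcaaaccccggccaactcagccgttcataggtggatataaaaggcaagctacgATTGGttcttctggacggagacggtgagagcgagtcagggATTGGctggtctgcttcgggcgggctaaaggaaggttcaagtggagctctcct
KIF11 (chr10:92592930-92593129, plus strand): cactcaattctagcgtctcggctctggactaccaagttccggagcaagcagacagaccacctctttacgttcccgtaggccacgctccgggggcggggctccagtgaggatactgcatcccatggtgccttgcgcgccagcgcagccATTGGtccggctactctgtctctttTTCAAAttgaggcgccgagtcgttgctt
ECT2 (chr3:172750526-172750725, plus strand): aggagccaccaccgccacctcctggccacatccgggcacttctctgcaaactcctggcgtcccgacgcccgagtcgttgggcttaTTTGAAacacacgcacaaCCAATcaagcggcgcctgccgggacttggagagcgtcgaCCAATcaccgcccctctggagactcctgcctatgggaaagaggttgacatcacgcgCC
HMMR (chr5:163460432-163460631, plus strand): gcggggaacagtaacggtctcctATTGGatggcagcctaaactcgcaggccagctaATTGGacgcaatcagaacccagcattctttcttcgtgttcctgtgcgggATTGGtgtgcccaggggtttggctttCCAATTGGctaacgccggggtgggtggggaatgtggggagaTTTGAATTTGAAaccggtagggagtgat
CCNB2 (chr15:59104946-59105145, plus strand): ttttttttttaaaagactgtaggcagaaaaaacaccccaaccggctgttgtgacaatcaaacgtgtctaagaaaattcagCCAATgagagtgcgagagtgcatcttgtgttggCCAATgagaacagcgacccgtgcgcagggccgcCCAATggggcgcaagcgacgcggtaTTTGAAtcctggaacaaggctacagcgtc
PLK1 (chr16:23678689-23678888, plus strand): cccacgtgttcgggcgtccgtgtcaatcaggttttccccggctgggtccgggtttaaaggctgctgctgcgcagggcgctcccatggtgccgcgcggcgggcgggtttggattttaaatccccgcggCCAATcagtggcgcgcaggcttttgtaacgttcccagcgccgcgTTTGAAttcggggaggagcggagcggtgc
KIF2C (chr1:44739637-44739836, plus strand): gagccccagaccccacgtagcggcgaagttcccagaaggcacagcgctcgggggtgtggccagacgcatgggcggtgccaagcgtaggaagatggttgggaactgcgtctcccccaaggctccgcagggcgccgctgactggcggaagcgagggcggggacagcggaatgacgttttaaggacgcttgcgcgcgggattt
CENPE (chr4:103198344-103198543, minus strand): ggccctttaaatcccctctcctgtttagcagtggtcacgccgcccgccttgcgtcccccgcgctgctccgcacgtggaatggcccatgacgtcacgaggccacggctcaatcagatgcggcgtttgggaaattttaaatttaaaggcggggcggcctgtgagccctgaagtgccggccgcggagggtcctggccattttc

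CCNB2, a B-type cyclin, held CCAAT 244, 120, 87 and 54 bases before its start, the first of these upstream of the bases shown, and TTTGAA 29 bases before it. PLK1, the polo kinase that acts from mitotic entry to cytokinesis, held CCAAT 73 bases and TTTGAA 29 bases before its start. KIF11, the motor that pushes spindle poles apart, held both on the reverse strand, 53 and 28 bases before its start. KIF20A, AURKB, CCNA2, CCNB1 and PTTG1 held CCAAT and no CHR letters, and BUB1B, NUF2, NDC80 and ANLN held CHR letters and no CCAAT. No match says only that these letters are not in this window.

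NOMO1 libraries held 15264862 to 29168628 counts each, and OCI-AML3 libraries 15561248 to 24262960. Levels below are CPM, a gene's count relative to the library's total after scaling within a line. Differences are log2 fold changes ± SE from edgeR, and a gene is called at an adjusted p under 0.05. In NOMO1 the DMSO day 3 libraries stood apart, with 17.6 to 18.0% mitochondrial reads, against 2.73 to 3.68% in DMSO day 6. DMSO day 6 is used as the control in NOMO1, and all NOMO1 comparisons with it share those libraries. NOMO1 VTP-50469 day 3 replicate 1 also stood apart from its group, with a summed 1894 CPM over the 35 genes, against 2801 and 2692 CPM in replicates 2 and 3. In OCI-AML3, VTP-50469 day 3 replicate 2 differed most from its group. The 9 myeloid genes listed were expressed in both lines, at a summed 5598 to 19830 CPM in NOMO1 and 938 to 2651 CPM in OCI-AML3. Genes of T and NK cells (6) summed to 7.27 to 57.1 CPM in NOMO1 and at most 0.347 CPM in OCI-AML3, genes of B cells (4) to 4.28 to 9.98 CPM and at most 1.80 CPM, and genes of epithelium and stroma (6) to 56.7 to 265 CPM and 0.334 to 17.6 CPM. The 4 erythroid genes reached at most 0.533 CPM.

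**Figure D1:**
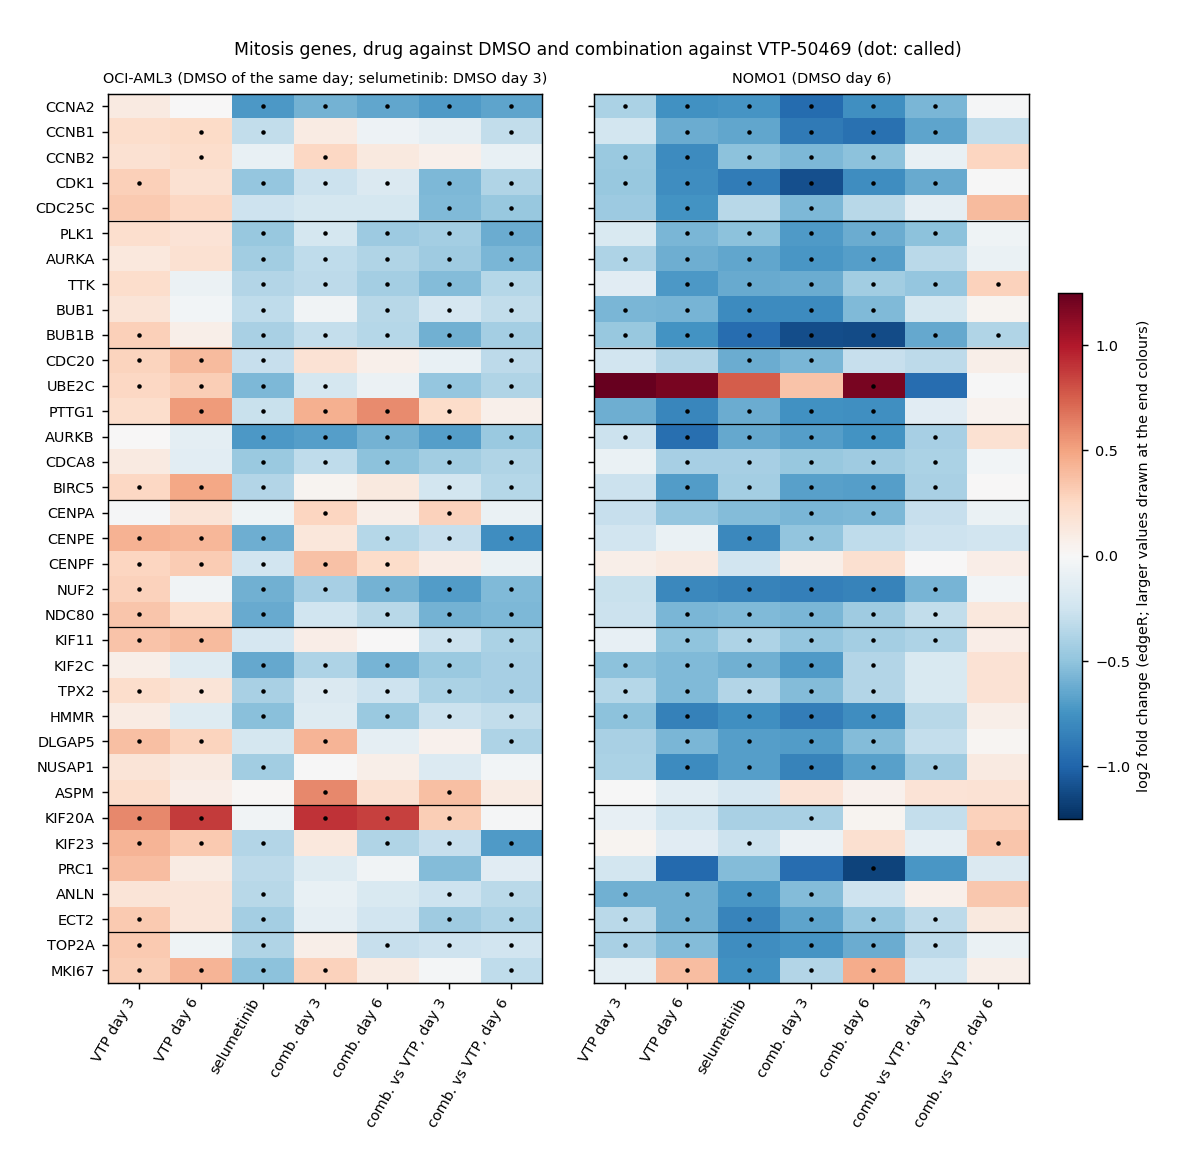
Log2 fold changes of the 35 genes (rows, grouped by role) in OCI-AML3 (left) and NOMO1 (right), for each drug group against DMSO and for the combination against VTP-50469; values past the ends of the colour scale take its end colours, and dots mark called genes. Under VTP-50469 on day 6, 25 genes are called lower in NOMO1 (25.1% of all genes) and 0 in OCI-AML3 (16%). Selumetinib lowers 28 in NOMO1 against DMSO day 6 (19%) and 27 in OCI-AML3 against DMSO day 3 (15.6%).

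In OCI-AML3, VTP-50469 raised part of the list, by a count that on day 3 depended on the control. On day 3, 17 of 35 members were higher than in DMSO (6.49% of all genes tested were higher) and 0 were lower (4.42%). On day 6, 14 were higher (18.8%) and 0 lower (16%). The median log2 fold changes of the 35 were 0.26 and 0.17, against 0.01 over all genes on both days. The day 3 count was 1 against DMSO day 6, and 3 without DMSO day 3 replicate 1. From DMSO day 3 to DMSO day 6, 34 of the 35 log2 fold changes were positive, with a median of 0.12. When only the compared groups were fitted, 18 members were called higher and 2 lower on day 6. All 3 genes of anaphase promotion were higher on day 6, and none of the 5 genes grouped as mitotic kinases. That group, meant wherever the 5 mitotic kinases are named, is PLK1, AURKA, TTK, BUB1 and BUB1B. The kinases CDK1 and AURKB were placed in other groups.

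KIF20A, a kinesin of the spindle midzone that is needed for cytokinesis, showed the largest rise on both days. It stood at 101, 85.0 and 92.3 CPM in VTP-50469 day 6, against 50, 52.1 and 49.9 CPM in DMSO day 6. The groups did not overlap, and the log2 fold change was 0.87 ± 0.09 (adjusted p = 8.466e-09). PTTG1, which encodes securin, the protein that holds separase inactive until anaphase, had 63.1, 59.0 and 62.2 CPM in VTP-50469 day 6, against 41.8, 42.5 and 43.2 CPM in DMSO day 6. It rose by 0.53 ± 0.09 (adjusted p = 1.019e-05) with no overlap. CDC20, the activator of the anaphase-promoting complex, rose by 0.39 ± 0.08 (adjusted p = 0.0002586).

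Of the 3 genes of the chromosomal passenger complex, which corrects faulty attachments of chromosomes to the spindle, 1 was called. BIRC5 (survivin) had 246, 259 and 232 CPM in VTP-50469 day 6, against 173, 183 and 172 CPM in DMSO day 6, and rose by 0.48 ± 0.08 (adjusted p = 6.869e-06). Its groups did not overlap. AURKB, the kinase of the complex, had 81.1, 81.7 and 73.1 CPM in VTP-50469 day 6, against 83.0, 84.0 and 90.2 CPM in DMSO day 6, and was not called (-0.12 ± 0.09, adjusted p = 0.3162). MKI67, the proliferation antigen that coats mitotic chromosomes, had 356, 379 and 448 CPM in VTP-50469 day 6, against 287, 306 and 289 CPM in DMSO day 6, and rose by 0.42 ± 0.10 (adjusted p = 0.001164).

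Of the genes that start mitosis, CCNB1 (cyclin B1) rose by 0.24 ± 0.08 (adjusted p = 0.01272) on day 6, a call that was lost without DMSO day 6 replicate 2 or replicate 3. CDK1, its kinase partner, was not called, at 0.19 ± 0.07 (adjusted p = 0.05023). PLK1, at 0.17 ± 0.07 (adjusted p = 0.07412), and AURKA, the centrosome kinase, at 0.19 ± 0.09 (adjusted p = 0.1003), were not called either. TOP2A, the topoisomerase that untangles sister chromatids, was called higher on day 3 (0.33 ± 0.07, adjusted p = 0.001623) and not on day 6 (-0.05 ± 0.07, adjusted p = 0.6074). Between the days of VTP-50469 it fell by 0.25 ± 0.07 (adjusted p = 0.01026). On day 3 the largest rises among the called members, after KIF20A (0.60 ± 0.09, adjusted p = 2.779e-05), were those of CENPE, a kinetochore motor (0.43 ± 0.11), KIF23, a midzone motor (0.42 ± 0.11), and DLGAP5, a spindle microtubule protein (0.38 ± 0.10). The calls of CENPE, KIF23 and DLGAP5 were lost without DMSO day 3 replicate 1 and against DMSO day 6, those of CENPE and DLGAP5 also without VTP-50469 day 3 replicate 2, and that of KIF23 also without DMSO day 3 replicate 3.

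The count on day 3 was 3 without DMSO day 3 replicate 1, 6 without DMSO day 3 replicate 3 and 4 without VTP-50469 day 3 replicate 2, and it was 1 against DMSO day 6. The count on day 6 was 9 without DMSO day 6 replicate 2 or without replicate 3. Genes of epithelium and stroma summed to 4.63 to 17.6 CPM in VTP-50469 day 6 and 0.354 to 1.04 CPM in DMSO day 6 of OCI-AML3, and the 9 myeloid genes to 1043 to 1094 CPM in VTP-50469 day 6 and 1353 to 1399 CPM in DMSO day 6. On day 3 the myeloid genes summed to 938 to 1119 CPM in VTP-50469 and 1360 to 1476 CPM in DMSO. The part of these lists in the results was not tested.

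In NOMO1, VTP-50469 lowered most of the list. On day 6, 25 of 35 members were lower than in DMSO day 6 (25.1% of all genes were lower) and 1 was higher (23.7%, and 48.8% in either direction), with a median of -0.59 against -0.01 over all genes. All 5 genes of the cyclin group, all 5 mitotic kinases and all 3 passenger genes were lower. Among the called members AURKB fell most, to 33.6, 36.2 and 34.6 CPM in VTP-50469 day 6, against 67.7, 61.2 and 71.2 CPM in DMSO day 6. The groups did not overlap, and the log2 fold change was -0.94 ± 0.10 (adjusted p = 4.022e-09).

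CDK1 stood at 85.5, 98.5 and 85.3 CPM in VTP-50469 day 6, against 155, 163 and 142 CPM in DMSO day 6, a log2 fold change of -0.77 ± 0.10 (adjusted p = 2.089e-07). CCNB1 had 56.2, 70.1 and 59.2 CPM in VTP-50469 day 6, against 100.5, 92.9 and 92.1 CPM in DMSO day 6, and fell by 0.62 ± 0.15 (adjusted p = 0.001465). For both genes every library of VTP-50469 lay below every DMSO library. PLK1 (-0.57 ± 0.11, adjusted p = 0.0001576), AURKA (-0.61 ± 0.14, adjusted p = 0.0007456) and TOP2A (-0.54 ± 0.08, adjusted p = 5.184e-06) were lower too. HMMR, a spindle microtubule protein, fell by 0.85 ± 0.15 (adjusted p = 4.6e-05), NUF2, an outer kinetochore subunit, by 0.81 ± 0.13 (adjusted p = 7.74e-06), and PTTG1 by 0.81 ± 0.22 (adjusted p = 0.006632). The members not called were CDC20 (-0.37 ± 0.15, adjusted p = 0.05424), UBE2C, CENPA, CENPE, CENPF, ASPM, KIF20A, KIF23 and PRC1. The myeloid genes summed to 10540 to 11510 CPM in VTP-50469 day 6 and 7296 to 7667 CPM in DMSO day 6, and genes of T and NK cells to 22.6 to 27.0 CPM in VTP-50469 day 6 and 33.2 to 36.6 CPM in DMSO day 6. Their part in the result was not tested.

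MKI67 was the member called higher. It stood at 240.0, 168 and 197 CPM in VTP-50469 day 6, against 164, 154 and 145 CPM in DMSO day 6, and rose by 0.39 ± 0.10 (adjusted p = 0.002351). Replicate 1 was the highest, and without it the value was 0.22 (adjusted p = 0.07736). On day 3, 13 members were lower than in DMSO day 6 (14.4%) and 0 higher (12.7%), with a median of -0.28. ANLN, a scaffold of the cleavage furrow, fell by 0.60 ± 0.13 (adjusted p = 0.001612), BUB1, a checkpoint kinase, by 0.57 ± 0.16 (adjusted p = 0.0131), KIF2C, a microtubule depolymerase, by 0.52 ± 0.11 (adjusted p = 0.0008286), and HMMR by 0.52 ± 0.14 (adjusted p = 0.01012). BUB1 had 40.8, 79.7 and 78.2 CPM in VTP-50469 day 3, against 104, 97.1 and 93.8 CPM in DMSO day 6. Replicate 1 was the lowest of its group for all 4 genes, and without it the value was -0.34 (adjusted p = 0.00156) for BUB1 and -0.33 (adjusted p = 0.00686) for HMMR. Against DMSO day 3, BUB1 was called higher, and ANLN, KIF2C and HMMR were not called. The count on day 3 against DMSO day 6 was 21 without VTP-50469 day 3 replicate 2, and 3 when only the compared groups were fitted. Genes of epithelium and stroma summed to 89.1 to 124 CPM in VTP-50469 day 3 and 56.9 to 60.9 CPM in DMSO day 6, those of T and NK cells to 45.6 to 51.5 CPM in VTP-50469 day 3 and 33.2 to 36.6 CPM in DMSO day 6, and the myeloid genes to 7705 to 12240 CPM in VTP-50469 day 3 and 7296 to 7667 CPM in DMSO day 6. Their part in the result was not tested.

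**Figure D2:**
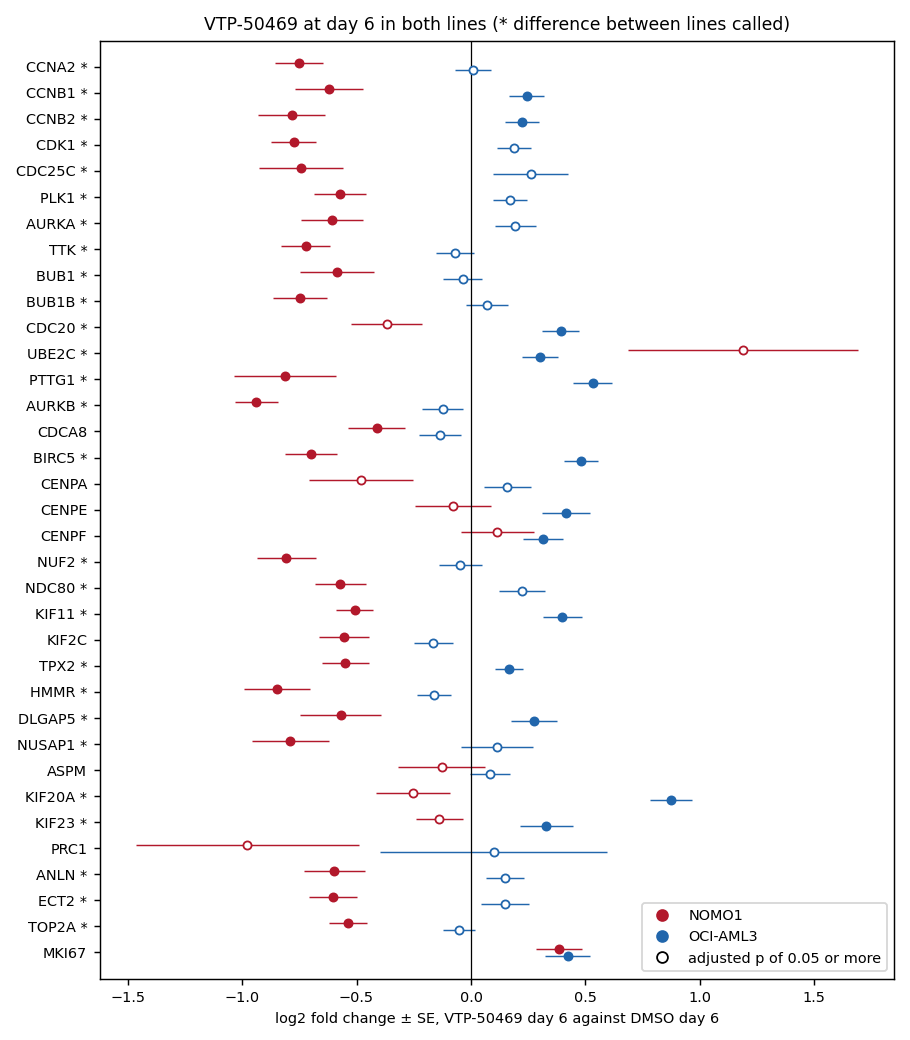
Log2 fold change ± SE of each gene under VTP-50469 on day 6 against DMSO day 6, in NOMO1 (red) and OCI-AML3 (blue); open circles were not called and asterisks mark a called difference between the lines. PTTG1, BIRC5, KIF11, DLGAP5, CCNB1, CCNB2 and TPX2 were called lower in NOMO1 and higher in OCI-AML3.

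The difference between the lines was tested in a fit of all 42 libraries. Under VTP-50469 on day 6 the log2 fold change was lower in NOMO1 than in OCI-AML3 for 26 of 35 members (16.8% of 18707 genes) and higher for 1 (16.6%), with a median difference of -0.69 against 0.02 over all genes. The smallest adjusted p belonged to BIRC5, with a difference of -1.11 ± 0.14 (adjusted p = 1.174e-08), then to KIF11 (-0.84 ± 0.12, adjusted p = 1.362e-07) and CDK1 (-0.89 ± 0.13, adjusted p = 1.718e-07). By line, 7 members were called lower in NOMO1 and higher in OCI-AML3, 18 lower in NOMO1 and not called in OCI-AML3, and 6 higher in OCI-AML3 and not called in NOMO1. MKI67 was higher in both lines, and 3 members were called in neither.

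Selumetinib alone lowered division genes in both lines. In OCI-AML3, 27 of 35 members were lower than in DMSO day 3 (15.6%) and 0 higher (11.7%), with a median of -0.38 against 0.02 over all genes. CCNA2, the cyclin of S and G2 phase, fell most, to 79.0, 79.1 and 71.0 CPM in selumetinib, against 127, 131 and 120.4 CPM in DMSO day 3. The groups did not overlap, and the log2 fold change was -0.72 ± 0.08 (adjusted p = 4.765e-08). The 9 myeloid genes summed to 1707 to 2115 CPM in selumetinib and 1360 to 1476 CPM in DMSO day 3, and genes of epithelium and stroma to 2.42 to 11.9 CPM in selumetinib and 0.334 to 1.51 CPM in DMSO day 3. Their part in the result was not tested. AURKB fell by 0.71 ± 0.09 (adjusted p = 4.639e-07), KIF2C by 0.64 ± 0.09 (adjusted p = 1.018e-06), and NDC80, which binds microtubules together with NUF2, by 0.63 ± 0.10 (adjusted p = 2.345e-05).

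All 5 mitotic kinases and all 3 genes of anaphase promotion were lower in selumetinib. CDK1 (-0.49 ± 0.07), PLK1 (-0.48 ± 0.07), AURKA (-0.43 ± 0.09), TOP2A (-0.38 ± 0.07), CCNB1 (-0.31 ± 0.08), CDC20 (-0.29 ± 0.08) and MKI67 (-0.51 ± 0.10) were all called, and the calls of CCNB1 and CDC20 were lost without DMSO day 3 replicate 2. MKI67 had 199.6, 177 and 156 CPM in selumetinib, against 243, 283 and 233 CPM in DMSO day 3. The members not called were CCNB2, CDC25C, CENPA, KIF11, DLGAP5, ASPM, PRC1 and KIF20A, which stood at 44.1, 42.8 and 48.5 CPM in selumetinib, against 45.7, 49.3 and 44.4 CPM in DMSO day 3 (-0.04 ± 0.09, adjusted p = 0.8142).

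In NOMO1, 28 of 35 members were lower in selumetinib than in DMSO day 6 (19%) and 0 higher (13.1%), with a median of -0.62 against 0.00 over all genes. BUB1B, a checkpoint protein that restrains CDC20, fell most, to 33.0, 37.5 and 26.2 CPM in selumetinib, against 64.7, 56.8 and 64.8 CPM in DMSO day 6. The groups did not overlap, and the log2 fold change was -0.95 ± 0.12 (adjusted p = 6.596e-07). CDK1 fell by 0.88 ± 0.10 (adjusted p = 1.218e-07), NUF2 by 0.83 ± 0.13 (adjusted p = 1.629e-05) and ECT2, which activates RHOA at the cleavage furrow, by 0.83 ± 0.11 (adjusted p = 8.776e-07). MKI67 stood at 90.1, 97.7 and 85.6 CPM in selumetinib, against 164, 154 and 145 CPM in DMSO day 6, and fell by 0.76 ± 0.10 (adjusted p = 2.361e-06). The myeloid genes summed to 9226 to 9816 CPM in selumetinib and 7296 to 7667 CPM in DMSO day 6, genes of epithelium and stroma to 131 to 145 CPM in selumetinib and 56.9 to 60.9 CPM in DMSO day 6, and genes of T and NK cells to 22 to 22.4 CPM in selumetinib and 33.2 to 36.6 CPM in DMSO day 6. Their part in the result was not tested. Against DMSO day 3, 17 members were lower (25.2%) and 2 higher (28.9%, and 54.1% in either direction), TOP2A and ASPM. The share of members called in either direction was 54.29%, close to that of all genes, so nothing is read from that share about the list. With that control CDK1, NUF2 and MKI67 were called lower, and BUB1B and ECT2 were not called.

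With DMSO day 6 as the control in both lines, the response to selumetinib was higher in NOMO1 for 1 member (4.65%) and lower for 0 (4.96%). That member was UBE2C, which had few counts in NOMO1, and the count was 0 without NOMO1 DMSO day 6 replicate 2 or NOMO1 selumetinib replicate 2. When only the compared groups were fitted, 7 members differed.

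**Figure D3:**
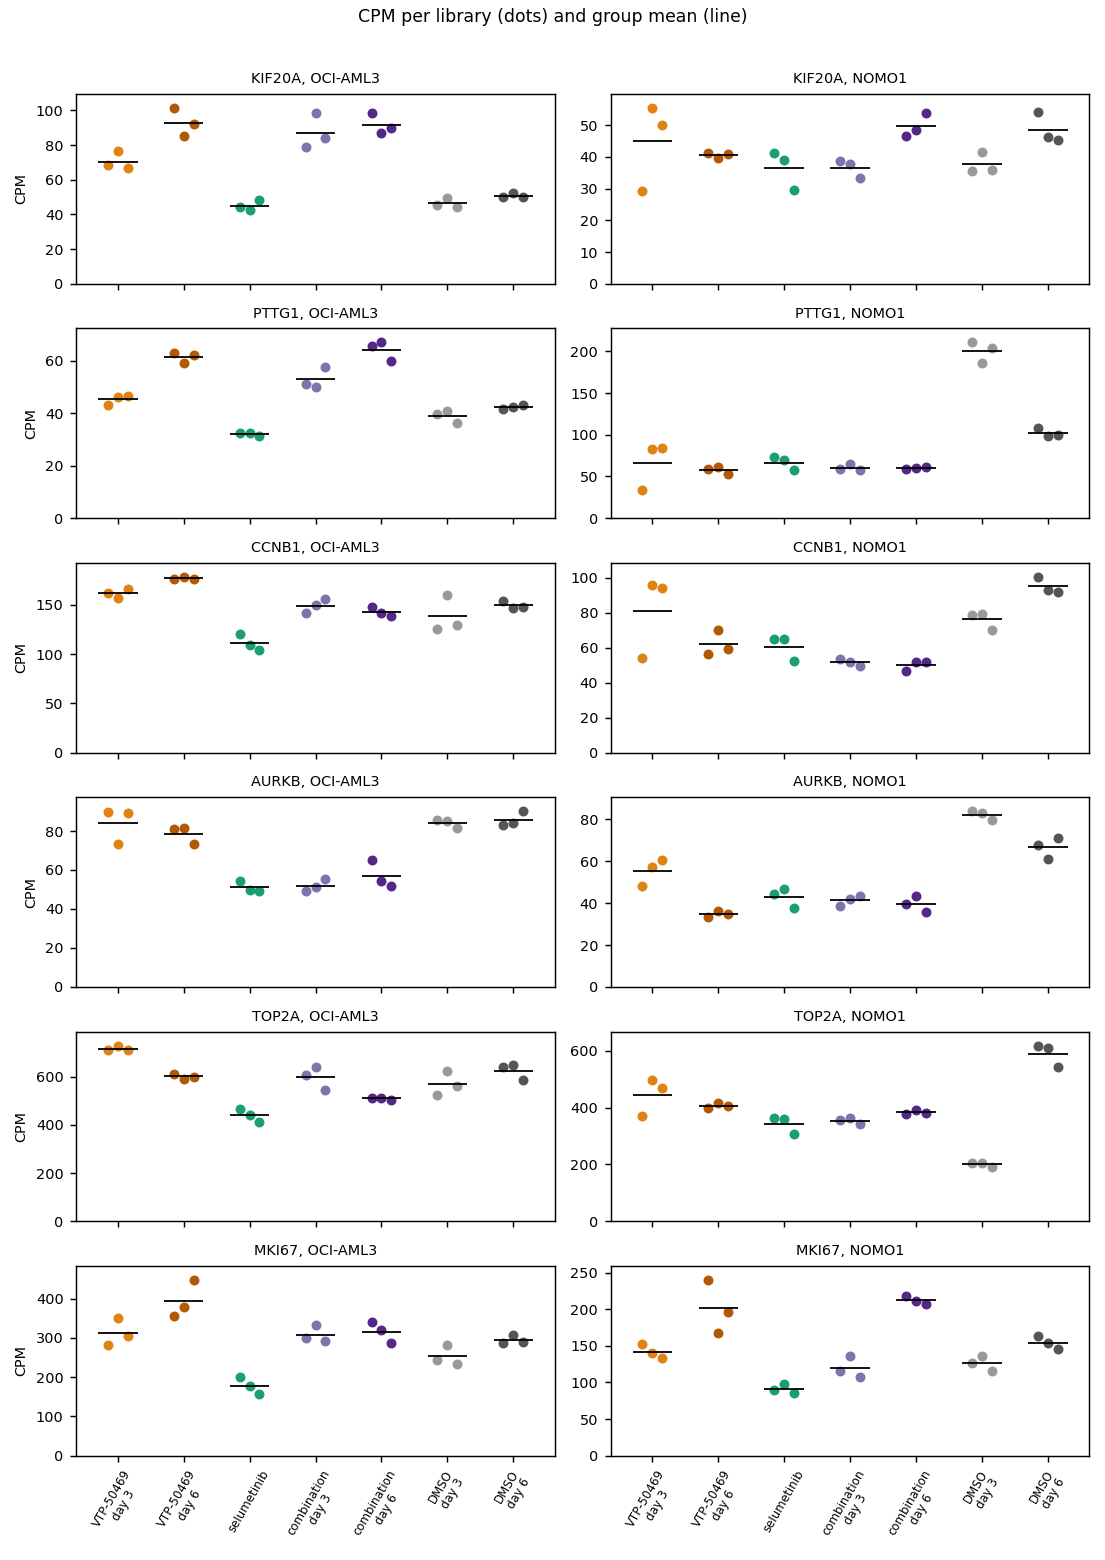
CPM of KIF20A, PTTG1, CCNB1, AURKB, TOP2A and MKI67 in each library (dots), in OCI-AML3 and NOMO1. In the OCI-AML3 combination groups KIF20A lies at 78.7 to 98.7 CPM, above its DMSO libraries at 44.4 to 52.1 CPM, and AURKB at 49.1 to 65.0 CPM, below its DMSO libraries at 81.3 to 90.2 CPM.

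In the OCI-AML3 combination some division genes were called higher and more were called lower. On day 3, 8 members were higher than in DMSO (22.3%) and 12 lower (25.8%, and 48.1% in either direction). On day 6, 3 were higher (23.1%) and 17 lower (26.5%, and 49.6% in either direction). The share of members called in either direction was 57.1% on each day, not far above those shares of all genes. Nothing is read about the list from that share, nor from the lower count on day 3. The count of higher members was close to the share of all genes on day 3 and below it on day 6, so nothing is read from it about the list. KIF20A had 78.7, 98.7 and 84.0 CPM in the combination on day 3, against 45.7, 49.3 and 44.4 CPM in DMSO day 3, and rose by 0.91 ± 0.09 (adjusted p = 1.294e-09). AURKB moved the other way, with 49.1, 51.3 and 55.4 CPM in the combination on day 3, against 85.5, 85.1 and 81.3 CPM in DMSO day 3, a log2 fold change of -0.69 ± 0.09 (adjusted p = 1.924e-07). Neither gene had groups that overlapped.

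Other members higher on day 3 included ASPM, a spindle pole protein (0.60 ± 0.09, adjusted p = 9.748e-07), PTTG1 (0.44 ± 0.09, adjusted p = 7.537e-05) and DLGAP5 (0.43 ± 0.10, adjusted p = 0.0008765). CCNA2 fell by 0.59 ± 0.08 (adjusted p = 3.285e-07), NUF2 by 0.41 ± 0.09 (adjusted p = 0.0005881) and KIF2C by 0.38 ± 0.09 (adjusted p = 0.0004053). By role, 4 of 5 mitotic kinases were lower on day 3 and all 5 on day 6. The myeloid genes summed to 1736 to 1869 CPM in the combination on day 3 and 1360 to 1476 CPM in DMSO day 3, and their part in the result was not tested.

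On day 6 KIF20A (0.86 ± 0.09, adjusted p = 4.54e-09) and PTTG1 (0.59 ± 0.09, adjusted p = 9.646e-07) were above DMSO. CENPF, a kinetochore protein, was the third member called higher (0.23 ± 0.09, adjusted p = 0.03362), and it lost its call without DMSO day 6 replicate 2 or 3 or combination day 6 replicate 1 or 2. CCNA2 fell by 0.65 ± 0.08 (adjusted p = 8.155e-08), NUF2 by 0.60 ± 0.10 (adjusted p = 5.146e-06), AURKB by 0.59 ± 0.09 (adjusted p = 3.088e-06) and KIF2C by 0.58 ± 0.09 (adjusted p = 1.807e-06). CDK1 was called lower (-0.18 ± 0.07, adjusted p = 0.04103), a call lost without DMSO day 6 replicate 1 or 2 or combination replicate 1, under another scaling and with DESeq2. Mitochondrial reads made up 10.8 to 14.9% of these libraries, against 2.48 to 3.71% in DMSO day 6, and with mitochondrial genes removed 3 members were higher and 17 lower. The 9 myeloid genes summed to 2370 to 2651 CPM in the combination on day 6 and 1353 to 1399 CPM in DMSO day 6, and their part in the result was not tested.

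Genes of G1 and S phase had lower median log2 fold changes than division genes in these libraries, a difference that was not tested. Of 32 listed G1 and S phase genes, 32 were lower in the combination on day 3 (25.8% of all genes) and 32 on day 6 (26.5%). Their median log2 fold changes were -1.53 and -1.20, beside -0.10 and -0.22 for the 35 division genes. MCM6, a subunit of the replicative helicase, fell by 2.37 ± 0.10 (adjusted p = 5.294e-16) on day 3. The summed CPM of the division genes divided by that of the G1 and S phase genes was 2.67 to 2.92 in the combination on day 3 and 2.07 to 2.29 on day 6, against 0.862 to 0.993 in the DMSO libraries of both days. In VTP-50469 day 6 the ratio was 1.02 to 1.12, and in selumetinib 1.15 to 1.45.

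**Figure D4:**
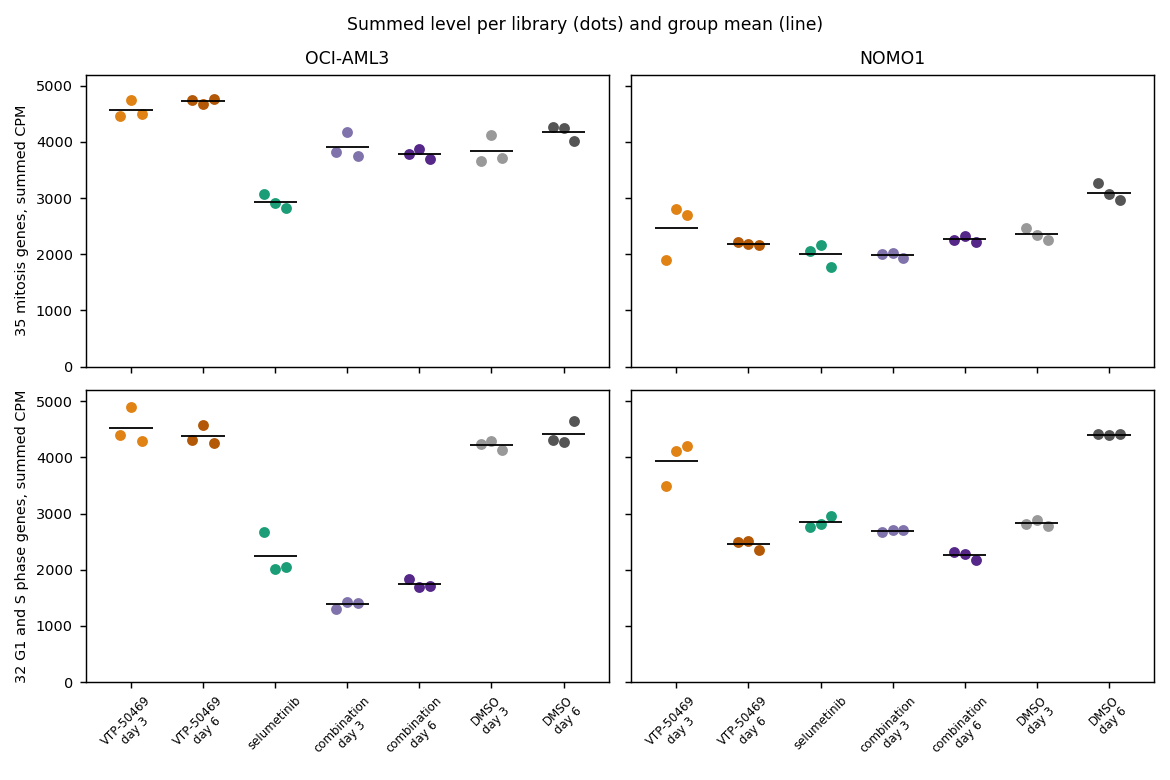
Summed CPM of the 35 division genes (top) and of 32 G1 and S phase genes (bottom) in each library (dots) with the group mean (line), for OCI-AML3 (left) and NOMO1 (right). In the OCI-AML3 combination on day 3 the division genes sum to 3744 to 4185 CPM and the G1 and S phase genes to 1310.0 to 1435 CPM, against 3657 to 4128 CPM and 4124 to 4289 CPM in DMSO day 3.

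In NOMO1 the combination lowered division genes on both days. On day 3, 30 members were lower than in DMSO day 6 (24.4%) and 0 higher (20.9%, and 45.3% in either direction). On day 6, 25 were lower (28.2%) and 2 higher (27.3%), and the medians were -0.66 and -0.51. BUB1B had 29.9, 30.4 and 26.2 CPM in the combination on day 3, against 64.7, 56.8 and 64.8 CPM in DMSO day 6, and fell by 1.11 ± 0.12 (adjusted p = 1.579e-08). CDK1 stood at 73.3, 72.7 and 68.7 CPM in the combination on day 3, against 155, 163 and 142 CPM in DMSO day 6, a log2 fold change of -1.10 ± 0.10 (adjusted p = 6.709e-10). Neither gene had groups that overlapped. CCNA2 fell by 0.96 ± 0.11 (adjusted p = 3.219e-08) and CCNB1 by 0.88 ± 0.15 (adjusted p = 5.47e-05).

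On day 6 BUB1B (-1.12 ± 0.12, adjusted p = 5.622e-09), CCNB1 (-0.93 ± 0.15, adjusted p = 1.874e-05) and NUF2 (-0.84 ± 0.13, adjusted p = 3.371e-06) were among the members lowered most. MKI67 had 116, 136 and 107 CPM in the combination on day 3 and 218, 212 and 207 CPM on day 6, against 164, 154 and 145 CPM in DMSO day 6. It was called lower on day 3 (-0.37 ± 0.10, adjusted p = 0.004056) and higher on day 6 (0.46 ± 0.10, adjusted p = 0.0003355). Between day 6 and day 3 of the combination it rose by 0.83 ± 0.10 (adjusted p = 3.241e-07). Of the 32 G1 and S phase genes, 30 were lower on day 3 (24.4% of all genes) and 30 on day 6 (28.2%), with medians of -0.76 and -1.01. The myeloid genes summed to 19540 to 19830 CPM on day 3 and 15940 to 16960 CPM on day 6 of the combination, against 7296 to 7667 CPM in DMSO day 6. Genes of epithelium and stroma summed to 243 to 265 CPM on day 3 and 124 to 132 CPM on day 6 of the combination, against 56.9 to 60.9 CPM in DMSO day 6. Genes of T and NK cells summed to 15.7 to 18.3 CPM on day 3 and 7.27 to 11.2 CPM on day 6 of the combination, against 33.2 to 36.6 CPM in DMSO day 6. The part of these lists in the result was not tested.

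UBE2C, the ubiquitin-conjugating enzyme of the anaphase-promoting complex, and PRC1, which bundles midzone microtubules, were called in NOMO1 on day 6 of the combination from few reads. UBE2C had 33, 26 and 29 counts in the combination on day 6, against 20, 6 and 17 counts in DMSO day 6, and was higher by 1.19 ± 0.51 (adjusted p = 0.04831). In OCI-AML3 it had 1222 to 3293 counts per library. PRC1 had 17, 18 and 8 counts in the combination on day 6, against 46, 20 and 39 counts in DMSO day 6, and was lower (-1.15 ± 0.49, adjusted p = 0.04928). The UBE2C call was lost without any 1 of 5 of the 6 libraries compared, and so was that of PRC1. Of the exonic bases of PRC1, 58.39% are shared with AC068831.7 and PRC1-AS1, and 62.16% of those of NUSAP1, a spindle protein, with AC087721.2, so their counts are uncertain in unstranded reads. The next largest shares were 12.5% for PLK1 and 10.21% for BUB1B. These overlaps were read from another GENCODE release than the one named for the counts.

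Set against VTP-50469 alone, the combination lowered division genes in OCI-AML3. On day 3, 23 members were lower (24%) and 4 higher (18.2%), and on day 6, 27 were lower (24.6%) and 0 higher (16.7%, and 41.3% in either direction). On day 6 CENPE had 57.4, 67.5 and 61.1 CPM in the combination, against 102, 105 and 111 CPM in VTP-50469, and fell by 0.78 ± 0.11 (adjusted p = 9.33e-07). The groups did not overlap. KIF23 fell by 0.71 ± 0.12 (adjusted p = 1.348e-05), CCNA2 by 0.66 ± 0.08 (adjusted p = 1.173e-07) and PLK1 by 0.62 ± 0.07 (adjusted p = 9.17e-08). KIF20A was called higher on day 3 (0.31 ± 0.09, adjusted p = 0.006121), a call lost without combination day 3 replicate 2, and was not called on day 6 (-0.02 ± 0.09, adjusted p = 0.9027).

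In NOMO1 the same comparison gave 15 lower members (19.2%) and 0 higher (15.9%) on day 3, and among the called members CCNB1 fell most (-0.66 ± 0.15, adjusted p = 0.001527). On day 6 there were 1 lower (15.2%) and 2 higher (12.4%, and 27.6% in either direction): BUB1B (-0.37 ± 0.12, adjusted p = 0.02028), KIF23 (0.34 ± 0.10, adjusted p = 0.0137) and TTK, a checkpoint kinase (0.29 ± 0.11, adjusted p = 0.04837). The calls of BUB1B and TTK were lost without VTP-50469 day 6 replicate 3 or combination day 6 replicate 2, and that of TTK also without VTP-50469 day 6 replicate 2 or combination day 6 replicate 1. The count on day 3 was 27 without VTP-50469 day 3 replicate 1 and 9 when only the compared groups were fitted. The count on day 6 was 1 without VTP-50469 day 6 replicate 3 or combination day 6 replicate 2, and 10 when only the compared groups were fitted.

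Between the lines, the day 6 difference of the combination from VTP-50469 was higher in NOMO1 for 15 members (11.4%) and lower for 0 (9.18%). KIF23 differed by 1.04 ± 0.16 (adjusted p = 3.727e-06), TPX2, a spindle assembly factor, by 0.59 ± 0.12 (adjusted p = 0.0002986) and AURKB by 0.64 ± 0.13 (adjusted p = 0.0004037). For the combination against DMSO day 6, the log2 fold change was lower in NOMO1 for 9 members (16.3%) and higher for 3 (18.6%, and 34.9% in either direction). The share of members called was 34.29%, close to that of all genes, so nothing is read from it about the list. The smallest adjusted p values there belonged to BIRC5 (-0.76 ± 0.14, adjusted p = 2.198e-05), PTTG1 (-1.30 ± 0.23, adjusted p = 2.237e-05) and CCNB1 (-0.81 ± 0.17, adjusted p = 0.0001508).

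The interaction on day 3 tests whether the combination differed from the sum of the single drugs on the log2 scale. In OCI-AML3, 2 members were above that sum (2.67%) and 0 below (6.27%, and 8.94% in either direction): PTTG1 by 0.50 ± 0.12 (adjusted p = 0.006914) and MKI67 by 0.49 ± 0.14 (adjusted p = 0.0234). In NOMO1 with DMSO day 6, 4 were above (7.91%) and 0 below (5.97%, and 13.9% in either direction): ANLN by 0.79 ± 0.19 (adjusted p = 0.006885), MKI67 by 0.51 ± 0.14 (adjusted p = 0.01686), ECT2 by 0.50 ± 0.15 (adjusted p = 0.02262) and TOP2A by 0.45 ± 0.12 (adjusted p = 0.01059). With DMSO day 3 the NOMO1 counts were 5 above (15.3%) and 3 below (21.7%, and 37% in either direction), and TOP2A was then below the sum (-1.10 ± 0.12, adjusted p = 3.972e-08). The labelled times of selumetinib and of the other groups differ, so these interactions set unequal exposures side by side. The shares of members called in either direction were 5.71% in OCI-AML3, and 11.43% (DMSO day 6) and 22.86% (DMSO day 3) in NOMO1. They were below those of all genes, and nothing is read about the list from them.

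These counts rest on single libraries. The OCI-AML3 count was 5 without VTP-50469 day 3 replicate 2, 4 without combination day 3 replicate 3, and 1 without VTP-50469 day 3 replicate 1 or 3, selumetinib replicate 3, combination day 3 replicate 2 or DMSO day 3 replicate 2. The NOMO1 count with DMSO day 6 was 9 without VTP-50469 day 3 replicate 2 and 2 without selumetinib replicate 3. With DMSO day 3 it was 19 without VTP-50469 day 3 replicate 1 and 5 without selumetinib replicate 1.

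In DMSO alone, division genes differed between the days in NOMO1. There 20 members were higher on day 6 than on day 3 (28.8%) and 4 lower (22.3%). TOP2A had 618, 610.3 and 542 CPM in DMSO day 6, against 206, 206 and 191 CPM in DMSO day 3, and rose by 1.55 ± 0.09 (adjusted p = 3.919e-14). PTTG1 stood at 108, 98.4 and 100.0 CPM in DMSO day 6, against 211, 186 and 204 CPM in DMSO day 3, and fell by 0.97 ± 0.22 (adjusted p = 0.001615). Neither gene had groups that overlapped. In OCI-AML3, edgeR called 0 members higher (0% of all genes) and 0 lower (0%) between the DMSO days, 4 members and 174 genes had an unadjusted p under 0.05, and DESeq2 called 0 members. Of the 35, 34 had a positive log2 fold change, with a median of 0.12 against 0.00 over all genes. For 9 members every day 6 library lay above every day 3 library (5.68% of all genes), and for 0 every one lay below (5.6%).

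The day of the control changed the day 3 values of NOMO1. VTP-50469 on day 3 gave 9 higher (29.7%) and 6 lower members (22.7%) against DMSO day 3, beside 0 and 13 against DMSO day 6, and 17 and 6 against DMSO day 3 without VTP-50469 day 3 replicate 1. TOP2A was called higher against DMSO day 3 (1.15 ± 0.09, adjusted p = 9.98e-12) and lower against DMSO day 6 (-0.41 ± 0.08, adjusted p = 0.0005257). The calls of BUB1, BUB1B and ECT2 changed direction in the same way. AURKB was called lower with DMSO day 3 (-0.57 ± 0.09, adjusted p = 1.072e-05) and with DMSO day 6 (-0.27 ± 0.09, adjusted p = 0.03321), and lost the second call without VTP-50469 day 3 replicate 1 or DMSO day 6 replicate 1 or 3. The combination on day 3 gave 3 higher (31.1%) and 18 lower members (27.5%) against DMSO day 3. Against DMSO day 3, the share of members called in either direction was 42.86% under VTP-50469 (52.4% of all genes) and 60% in the combination (58.7%). Nothing is read about the list from those shares.

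Between the days of one treatment, VTP-50469 in OCI-AML3 had 5 members higher on day 6 than on day 3 (9.8%) and 1 lower (8.65%), led by PTTG1 (0.44 ± 0.08, adjusted p = 0.0004011). Without VTP-50469 day 3 replicate 1 these were 2 and 1. The OCI-AML3 combination had 2 higher (8.44%) and 5 lower (6.59%), with KIF23 at -0.43 ± 0.12 (adjusted p = 0.01283), and the counts were 1 and 1 without its day 3 replicate 2, 0 and 4 without its day 3 replicate 1, and 1 and 3 without its day 6 replicate 3. The share of members called in either direction was 17.14% for VTP-50469 (18.5% of all genes) and 20% for the combination (15%). Nothing is read about the list from those shares.

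In NOMO1, VTP-50469 had 1 member higher on day 6 than on day 3 (20.8%), MKI67 (0.50 ± 0.10, adjusted p = 0.0002115), and 12 lower (21.3%), among which AURKB fell most (-0.67 ± 0.10, adjusted p = 1.994e-06). Without VTP-50469 day 3 replicate 1 there were 29 lower, without its replicate 2 or 3 there were 6, and without VTP-50469 day 6 replicate 1 there were 7. The NOMO1 combination had 5 higher (20.6%) and 0 lower (19.7%). That count was 1 without its day 3 replicate 3, 2 without its day 6 replicate 2, and 3 without its day 3 replicate 1 or 2 or its day 6 replicate 3. The share of members called in either direction was 37.14% for VTP-50469 (42.2% of all genes) and 14.29% for the combination (40.2%). Nothing is read about the list from those shares.

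Further genes of the cycle were read from lists. Of 47 other mitosis genes, VTP-50469 on day 6 lowered 33 (25.1% of all genes) and raised 0 (23.7%) in NOMO1, and lowered 0 (16%) and raised 14 (18.8%) in OCI-AML3. Selumetinib lowered 39 in NOMO1 (19%) and 36 in OCI-AML3 (15.6%), and raised 0 in NOMO1 (13.1%) and 0 in OCI-AML3 (11.7%). Of 16 condensin and cohesin genes, whose products fold chromosomes and hold sister chromatids together, selumetinib lowered 12 in NOMO1 (19%) and 13 in OCI-AML3 (15.6%). NCAPD3, a condensin II subunit, fell by 1.23 ± 0.09 (adjusted p = 4.333e-12) in the OCI-AML3 combination on day 3. Of 17 genes of the anaphase-promoting complex list, VTP-50469 on day 6 lowered 11 (25.1%) and raised 1 (23.7%) in NOMO1, and lowered 3 (16%) and raised 5 (18.8%) in OCI-AML3. The count lowered in OCI-AML3 was close to the share of all genes.

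**Figure D5:**
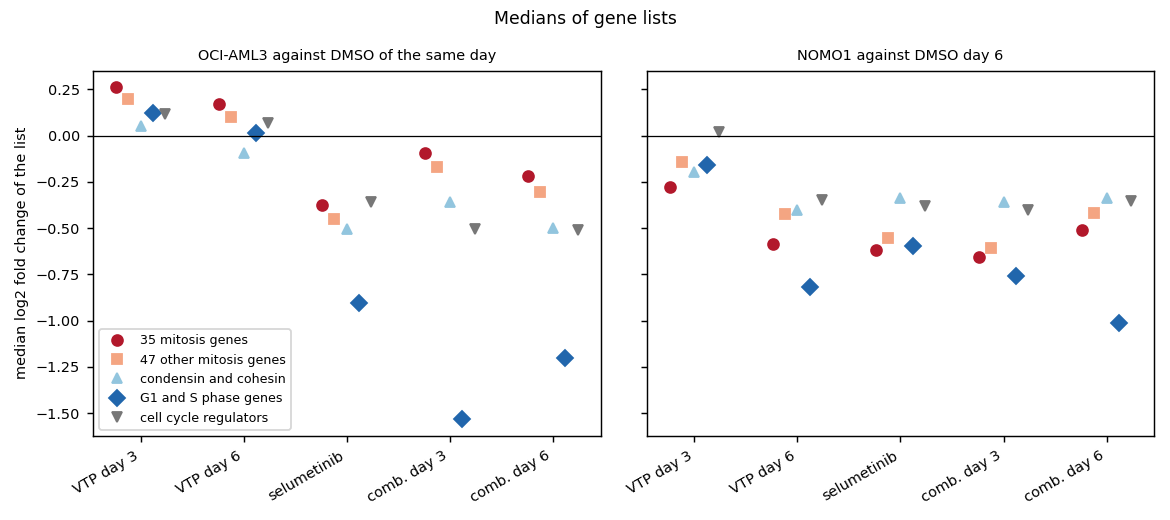
Median log2 fold change of the 35 division genes and of 4 other lists, for each drug group against DMSO, in both lines. In the OCI-AML3 combination the G1 and S phase genes lie at -1.53 on day 3 and -1.20 on day 6, below the division genes at -0.10 and -0.22.

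Among the 23 listed regulators of the cycle, 12 were lower (25.1% of all genes) and 3 higher (23.7%) under VTP-50469 on day 6 in NOMO1, and 6 were lower (16%) and 7 higher (18.8%) in OCI-AML3. FOXM1, the activator of G2 genes, averaged 33.0 ± 1.22 CPM in VTP-50469 day 6 and 43.5 ± 2.90 CPM in DMSO day 6 of NOMO1 (SD, n = 3 each), and fell by 0.40 ± 0.08 (adjusted p = 0.0002557). In OCI-AML3 it averaged 112 ± 6.99 CPM in VTP-50469 day 6 and 78.6 ± 1.93 CPM in DMSO day 6 (SD, n = 3 each), and rose by 0.52 ± 0.09 (adjusted p = 2.109e-05). MYBL2, its partner on MuvB, fell by 0.71 ± 0.08 (adjusted p = 3.785e-08) in NOMO1 and rose by 0.35 ± 0.09 (adjusted p = 0.004094) in OCI-AML3.

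In the OCI-AML3 combination on day 3, E2F1, an activator of replication genes, averaged 6.42 ± 1.16 CPM in the combination and 43.9 ± 2.47 CPM in DMSO day 3 (SD, n = 3 each), and fell by 2.77 ± 0.16 (adjusted p = 1.207e-14). MYBL2 fell by 1.29 ± 0.10 (adjusted p = 4.343e-12), and FOXM1 was not called (-0.01 ± 0.09, adjusted p = 0.9701). LIN54, the MuvB subunit that contacts the CHR, fell by 1.30 ± 0.11 (adjusted p = 3.58e-11).

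Of 8 listed inhibitors of cyclin-dependent kinases, 7 were higher (22.3% of all genes) and 1 lower (25.8%) in the OCI-AML3 combination on day 3. CDKN1A (p21) averaged 280.4 ± 6.77 CPM in VTP-50469 day 6 and 55.0 ± 1.39 CPM in DMSO day 6 of NOMO1 (SD, n = 3 each), and rose by 2.35 ± 0.14 (adjusted p = 2.826e-11). In OCI-AML3 it rose by 1.13 ± 0.14 (adjusted p = 1.166e-06) under VTP-50469 on day 6 and by 1.00 ± 0.14 (adjusted p = 3.123e-06) in the combination on day 3. Selumetinib alone lowered it in NOMO1 (-1.01 ± 0.14, adjusted p = 1.763e-05), and in OCI-AML3 it was not called (-0.08 ± 0.14, adjusted p = 0.7548). CDKN2C (p18) fell by 1.42 ± 0.12 (adjusted p = 5.162e-10) under VTP-50469 on day 6 in NOMO1. CDKN2A fell by 2.46 ± 0.25 (adjusted p = 4.751e-09) under VTP-50469 on day 6 in OCI-AML3, and with CDKN2B it did not pass the filter on low counts in NOMO1.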

How the data were processed

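The deposited table holds raw read counts per gene. Per the submitters' processing notes, FastQC 0.11.9, MultiQC 1.14, STAR 2.11a, featureCounts of Subread 2.0.6, DESeq2 1.44.0 and the build hg38 were used, and the file header names GENCODE 30. Of 58870 rows, 1 was dropped for an empty cell, and 3 columns that match no labelled sample were not used.

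Counts were fitted in R 4.3.3 with edgeR 4.0.16 (quasi-likelihood test, robust, TMM scaling, filterByExpr, Benjamini-Hochberg adjustment over all genes tested, threshold 0.05). Each line was fitted on its own 21 libraries, with 16384 genes in OCI-AML3 and 16561 in NOMO1, and differences between the lines on all 42, with 18707 genes. There were 30 comparisons in all, each adjusted on its own. The 35 members and the lists were chosen with earlier results of these data known. Members given values were drawn from a set of 8 (CDK1, CCNB1, PLK1, AURKA, AURKB, CDC20, TOP2A and MKI67). Others were the 4 called members of largest rise and of largest fall per comparison, and the 3 of smallest adjusted p per line difference. Not all of these are given in every comparison. Genes from other lists were drawn from the 4 called genes of smallest adjusted p, and any regulator or inhibitor. UBE2C, PRC1 and NUSAP1 were also described after their counts and overlaps were seen, and KIF20A and BIRC5 were given values in further comparisons.

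On simulated counts with 200 changed genes, made from 67, 67 and 66 changed by 1.5, 2 and 4 times, the fit found 62.7%, 80.6% and 95.5% in OCI-AML3, 47.8%, 79.1% and 100% in NOMO1, and 25.4%, 49.3% and 87.9% for a difference between lines. These genes were changed in 1 group and all others were left equal. In the data far more genes were called, such as 58.7% in the NOMO1 combination on day 3 against DMSO day 3. The rates therefore describe the simulation and not the comparisons above. The alternatives were DESeq2 1.42.0, relative log expression scaling, no filter, at least 1 CPM in 3 libraries, mitochondrial genes removed, only the compared groups, DMSO day 6 as the control, a replicate block and each library left out.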

Additional observations from a re-analysis of the deposited data

Results flagged for a closer look

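The responses of the 35 division genes that differed between the lines, by a test of the difference itself, are given here as NOMO1 minus OCI-AML3 on the log2 scale. Under VTP-50469 on day 6, 27 members differed (77.14%, against 33.4% of all genes), with BIRC5 at -1.11, CDK1 at -0.89 and KIF11 at -0.84. Under the combination on day 6, 12 members differed (34.29%, against 34.9%), with PTTG1 at -1.30, CCNB1 at -0.81 and BIRC5 at -0.76. That count was close to the share of all genes, so nothing is read from it about the list. For the combination against VTP-50469 on day 6, 15 members differed (42.86%, against 20.6%), with KIF23 at 1.04, AURKB at 0.64 and TPX2 at 0.59. For selumetinib against DMSO day 6, 1 member differed (2.86%, against 9.61%), UBE2C, at 1.49. What lies behind these differences was not tested.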

How the results depend on the processing

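Counts are members called in either direction. Rescaling, the count filter of 1 CPM, DESeq2, mitochondrial genes removed and a replicate block moved no count of members by over 1.5 times. Replicate numbers did not pair libraries (same-number correlations -0.0889 to 0.0494); with the replicate block VTP-50469 called 16 and 15 members on days 3 and 6 in OCI-AML3 and 13 and 26 in NOMO1. With DMSO day 6 as the control, VTP-50469 day 3 in OCI-AML3 called 1 and the interaction 8. Without the filter, the interactions called 4 in OCI-AML3 and 7 in NOMO1, and the NOMO1 combination against VTP-50469 on day 6 called 5. With only the compared groups fitted, the OCI-AML3 combination between days called 3. In NOMO1 that setting gave 3 for VTP-50469 day 3 and 9 against DMSO day 3, 9 and 10 for the combination against VTP-50469 on days 3 and 6, 5 and 11 between days for VTP-50469 and the combination, and 7 for the line difference in selumetinib. The cause was not tested.

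Leaving out each library in turn, OCI-AML3 counts ranged 3 to 15 and 9 to 12 for VTP-50469 on days 3 and 6, 20 to 26 for selumetinib, 16 to 20 and 18 to 21 for the combination, 19 to 25 and 26 to 27 for it against VTP-50469, 1 to 5 for the interaction, and 3 to 7, 2 to 6 and 0 to 0 between days of VTP-50469, combination and DMSO. NOMO1 counts ranged 12 to 21 and 25 to 28 for VTP-50469, 25 to 27 for selumetinib, 26 to 30 and 23 to 27 for the combination, 10 to 27 and 1 to 3 for it against VTP-50469, 2 to 9 for the interaction, and 7 to 30, 1 to 4 and 20 to 24 between days. Against DMSO day 3 they ranged 12 to 23 for VTP-50469, 15 to 18 for selumetinib, 17 to 22 for the combination and 5 to 19 for the interaction. Line differences ranged 24 to 26 for VTP-50469, 11 to 13 for the combination, 12 to 16 for it against VTP-50469 and 0 to 1 for selumetinib. Of single values, 1 reversed: ANLN between days of VTP-50469 in NOMO1 ranged -0.21 to 0.16, and it was -0.21 without VTP-50469 day 3 replicate 1 (adjusted p = 0.01544).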
